A study of Mus musculus with 69 samples.

Results

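The mouse genes Id1, Id2, Id3 and Id4 encode the family of Id proteins, and they were read in every one of 69 single cells from the embryonic dorsal forebrain. They were taken by name, as 4 of the 18194 genes that the array measured with a probe set assigned to a single gene. The platform annotation gives them 8 probe sets, 1 each for Id1 and Id3 and 3 each for Id2 and Id4. Each cell was hand-picked after trypsin digestion of small fragments of the dorso-lateral cerebral wall of CD1 mice at embryonic day 14, and its amplified cDNA was hybridised to 1 Affymetrix array. 66 cells came from the ventricular and subventricular zone (VZ/SVZ), where progenitors divide, and 3 from the cortical plate (CP), where new neurons settle. The source names and strain labels give CD1 for all of them and no genotype or treatment, while the free-text descriptions carry a running number in place of the strain name. The descriptions of the 3 CP cells also name the VZ/SVZ, against their source names, which were followed here. The submitters amplified 102 single-cell samples and put 70 on arrays after a quality check. The titles of the VZ/SVZ cells carry a letter, A in 7 cells, B in 14, C in 7, D in 7 and X in 31, and the CP cells carry E. The labels do not say what the letters stand for.

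Id proteins have a helix-loop-helix domain but no basic DNA-binding stretch. They bind E proteins, the common partners of basic helix-loop-helix (bHLH) factors such as the neurogenins and NeuroD factors, and the resulting dimers cannot bind DNA. Bone morphogenetic proteins (BMPs), acting through SMAD proteins, are well-known inducers of Id genes, and in the nervous system Id factors are best known for holding back differentiation of progenitors.

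No label names an embryo, so the cells of a source are not known to be separate animals, and each source counts as 1 sample. Means ± SD below are over cells, shares above 50 carry exact Clopper-Pearson 95% intervals that cover counting error only, and no test between groups was made. The deposited signal is a MAS5 intensity in arbitrary units. A signal of 50 separates on from off here: none of 207 readings of the TrpnX control probe sets, which match no mouse RNA, was above it, against 18% of all readings. Between 3773 and 5806 genes per cell were above 50. The phe spike RNA, added at 20 copies per cell, was above 50 in all 69 cells and the thr spike, at 5 copies, in 27 of 69, so the arrays did not register every transcript present in a few copies. Log2 means set every signal under 6.26, the 95th percentile of the TrpnX readings, to that value.

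Sox2, a transcription factor of neural progenitors, was above 50 in 49 VZ/SVZ cells. Eomes (Tbr2), which marks intermediate progenitors, was above 50 in 28, and Tubb3, the neuronal beta-tubulin, in 35. Few cells lay near the threshold. Sox2 was 47.8 in the highest cell below it and 96.3 in the lowest above, Eomes 40.8 and 245, and Tubb3 39.1 and 124. Pax6 was above 50 in 56 VZ/SVZ cells and the proliferation gene Mki67 in 55. All 3 CP cells had Tubb3 above 50, and none had Sox2, Eomes, Pax6 or Mki67. Classes were made with these thresholds: 30 VZ/SVZ cells had Sox2 without Tubb3, 16 had Tubb3 without Sox2 and 19 had both. The title letters followed the same markers. All 7 letter A cells had Sox2 and none had Eomes, 13 of 14 letter B and 7 of 7 letter C cells had Eomes, and all 7 letter D cells had Tubb3 with no Sox2, Eomes, Pax6 or Mki67. Letter D held a single class, while letters A, B, C and X held cells of 2 or more.

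The upstream sequences of Id2 and Id4 are shown because these 2 paralogues ran in opposite directions across the cells. RefSeq entries on GRCm38.p6 matched Id2, Id3 and Id4. The 250 bases before the start of Id2 lie at chr12:25096093-25096342 on the minus strand, and those of Id4 at chr13:48260866-48261115 on the plus strand. Capitals mark E-boxes, CANNTG, the element bound by bHLH dimers, and GGCGCC, a GC-rich element to which SMADs can bind. Both motifs read the same on either strand, and the matches do not overlap.
Id2: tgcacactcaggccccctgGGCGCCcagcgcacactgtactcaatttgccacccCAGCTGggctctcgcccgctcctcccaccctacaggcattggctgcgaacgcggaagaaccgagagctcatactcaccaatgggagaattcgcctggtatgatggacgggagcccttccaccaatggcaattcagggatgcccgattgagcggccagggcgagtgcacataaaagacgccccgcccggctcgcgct
Id4: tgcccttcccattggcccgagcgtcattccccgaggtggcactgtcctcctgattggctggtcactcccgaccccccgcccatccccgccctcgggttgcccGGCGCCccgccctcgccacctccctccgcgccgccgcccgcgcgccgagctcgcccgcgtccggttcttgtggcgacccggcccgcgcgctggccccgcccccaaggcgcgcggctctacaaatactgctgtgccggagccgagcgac
The Id2 window holds 1 E-box, whose first base is 196 bases before the start, and 1 GGCGCC at 231 bases. The Id4 window holds no E-box and 1 GGCGCC, at 148 bases. Neither motif was found in the window of Id3. Of the 32851 mouse promoter windows of this length, 66.2% hold an E-box and 9.59% hold GGCGCC. The windows differ in base composition, with 62.8% G or C for Id2 and 75.6% for Id4, against a median of 52.4% over all windows.

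Id4 was high in cells with the progenitor marker Sox2 and low in those without it. On its brightest probe set, 1423259_at, it was above 50 in 45 of 66 VZ/SVZ cells (68.2%, 95% interval 55.6 to 79.1), with a lowest signal of 0.118, a median of 914 and a highest of 4311. Only 1 of the cells below the threshold lay between 25 and 50, so few cells were near it. It was on in 41 of 49 cells with Sox2 and in 4 of 17 without. The medians were 2240.2 and 1.44, and the mean log2 signal was 9.46 ± 3.10 against 4.12 ± 2.73, a difference of 5.34. The ranges of the 2 sets of cells overlapped, from 0.164 to 4311 with Sox2 and from 0.118 to 865 without. In the Sox2 comparison 12.7% of all genes were higher by at least 1 log2 unit and 6.99% lower, and 39 of 18194 genes, Id4 included, were as far up as Id4.

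The Tubb3 split gave Id4 one of the lowest values on the array. It was above 50 in 29 of 31 cells without Tubb3 and in 16 of 35 with it, with medians of 2395 and 8.94 and a log2 difference of -4.46. Across all genes 5.39% were higher and 7.27% lower by at least 1 log2 unit with Tubb3, and 3 genes, Id4 among them, were that low. Between the classes, 29 of 30 cells with Sox2 and no Tubb3 had Id4 above 50 (lowest 44.1, median 2402, highest 3938), and 4 of 16 with Tubb3 and no Sox2 did (lowest 0.118, median 1.01, highest 865). The means were 10.71 ± 1.55 and 4.21 ± 2.80 log2 units, 6.50 apart. In this contrast 13.4% of genes were higher and 8.32% lower by at least 1 unit, and 8 genes including Id4 were as far up.

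Combining the markers showed where Id4 was low on this probe set. All 20 cells with Sox2 alone had it (lowest 129.8, median 2354, highest 3936). All 8 with Sox2 and Tubb3 had it as well (lowest 1409, median 2470.2, highest 4311), so low Id4 was not seen in Sox2 cells that had Tubb3 but no Eomes. Of 10 cells with Sox2 and Eomes, 9 were above 50, and the tenth was at 44.1. The 11 cells with Sox2, Eomes and Tubb3 together were different: 4 were above 50, the median was 8.94 and the highest was 556. Of 6 cells with Eomes and Tubb3 but no Sox2, 1 was above 50, and of 10 with Tubb3 alone, 3 were. The 1 cell with only Eomes read 4.62. Among the Sox2 cells as a whole, Id4 was above 50 in 28 of 28 without Eomes and in 13 of 21 with Eomes, with a log2 difference of -3.61. Split by Tubb3, the same cells gave 12 of 19 with it and 29 of 30 without, a difference of -3.22.

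**Figure D1:**
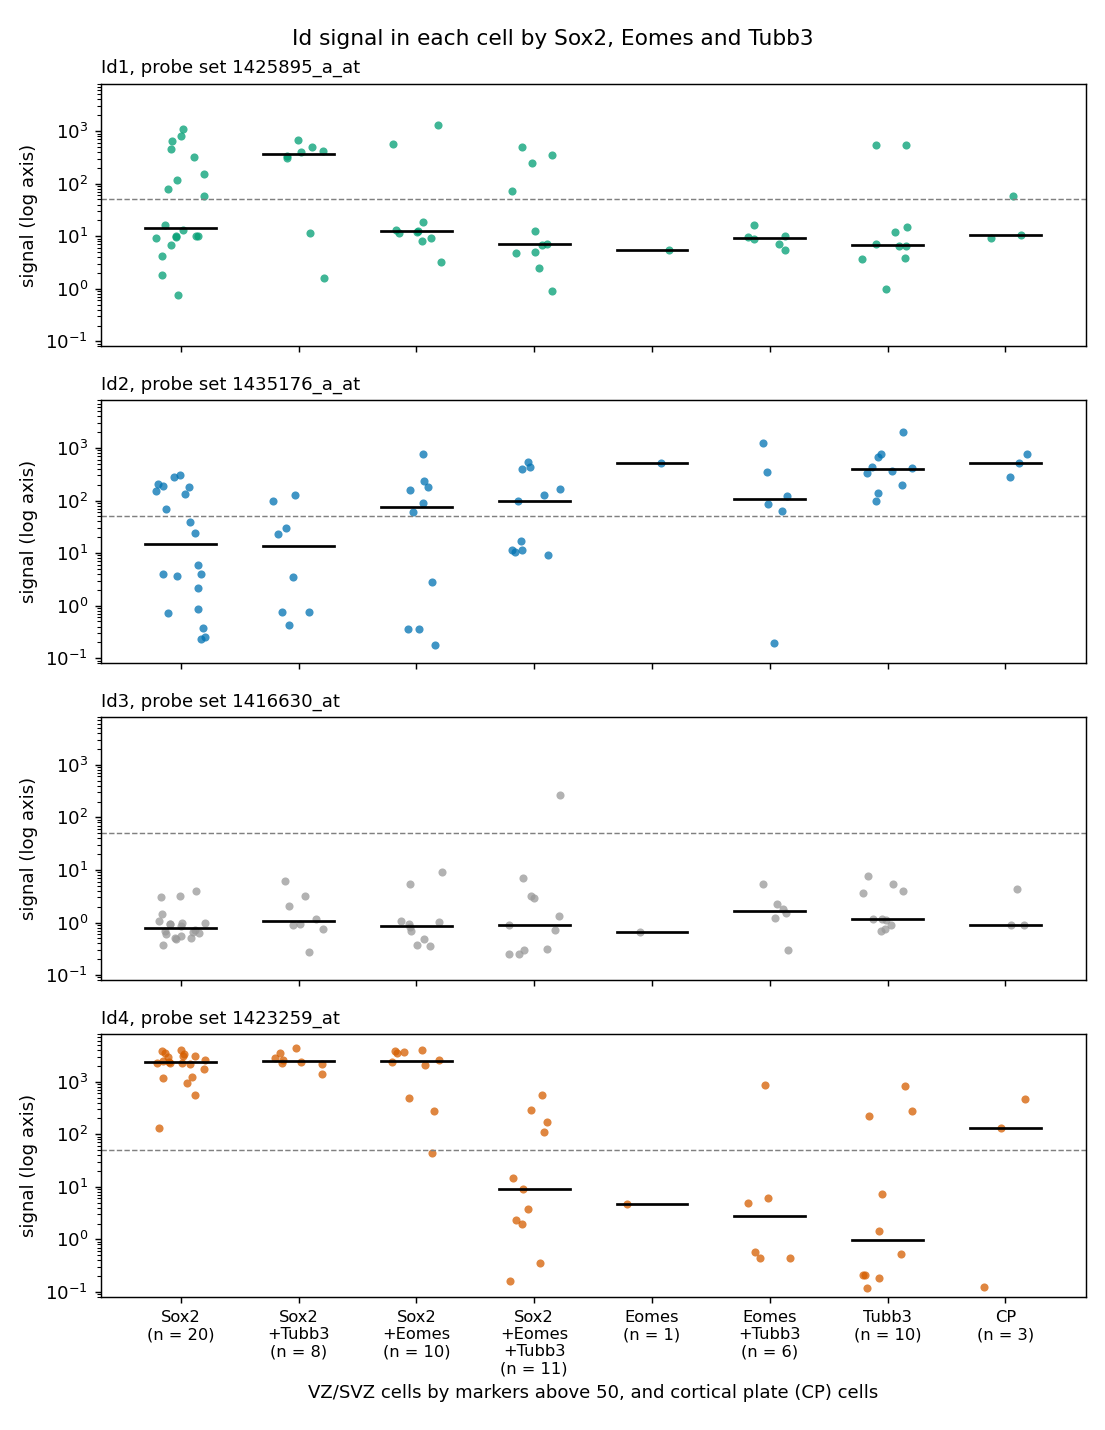
Signal of each Id gene on its brightest probe set (log axis) in each cell, with VZ/SVZ cells grouped by which of Sox2, Eomes and Tubb3 were above 50 and the 3 CP cells at the right; bars are medians and the dashed line is 50. Id4 stays above 50 in the 20 cells with Sox2 alone, and its median is 8.94 in the 11 cells with all 3 markers, while Id2 is above 50 in all 10 cells with Tubb3 alone.

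The split by Eomes over all VZ/SVZ cells gave Id4 a smaller difference than Sox2 or Tubb3 did. It was above 50 in 14 of 28 cells with Eomes and in 31 of 38 without, a log2 difference of -2.81. Few genes differed in this split: 4.15% were higher and 5.23% lower by at least 1 unit, and 24 genes including Id4 were that low. With Eomes called at the TrpnX level instead of 50 the difference was -0.72. Within letter X the values kept their sign, with Id4 above 50 in 25 of 26 cells with Sox2 and 1 of 5 without, in 6 of 11 with Tubb3 and 20 of 20 without, and in 5 of 8 with Eomes and 21 of 23 without. In letter A, where every cell had Sox2 and Id4, the Tubb3 difference had the other sign, at 1.75 for 3 cells against 4. In letter C the Sox2 difference was 0.04, again for 4 cells against 3.

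A further probe set of Id4, 1450928_at, gave a similar share of VZ/SVZ cells. It was above 50 in 46 of 66 cells, on together with 1423259_at in 40 and off together in 15, and the rank correlation of the pair over the 66 cells was 0.84. The probe sets share the arrays and the amplified cDNA, so this is agreement within a cell and not a repeat. They differed in letter B, where 1 of 14 cells was on by 1423259_at only and 5 by 1450928_at only, giving 7 against 11 cells above 50. In letter D, 1423259_at was above 50 in 2 of 7 cells, at 820 and 277, and 1450928_at in 0 of 7, with a highest signal of 7.16. In the 11 cells with Sox2, Eomes and Tubb3, 4 were above 50 on 1423259_at and 5 on 1450928_at, but only 2 were on by both and 4 were off by both, so which of these cells had low Id4 depended on the probe set. The Eomes difference over all VZ/SVZ cells was -1.47 on 1450928_at, against -2.81. The third set, 1423260_at, was dim throughout, above 50 in 2 of 66 cells with a highest signal of 100.1, and carries little information.

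**Figure D2:**
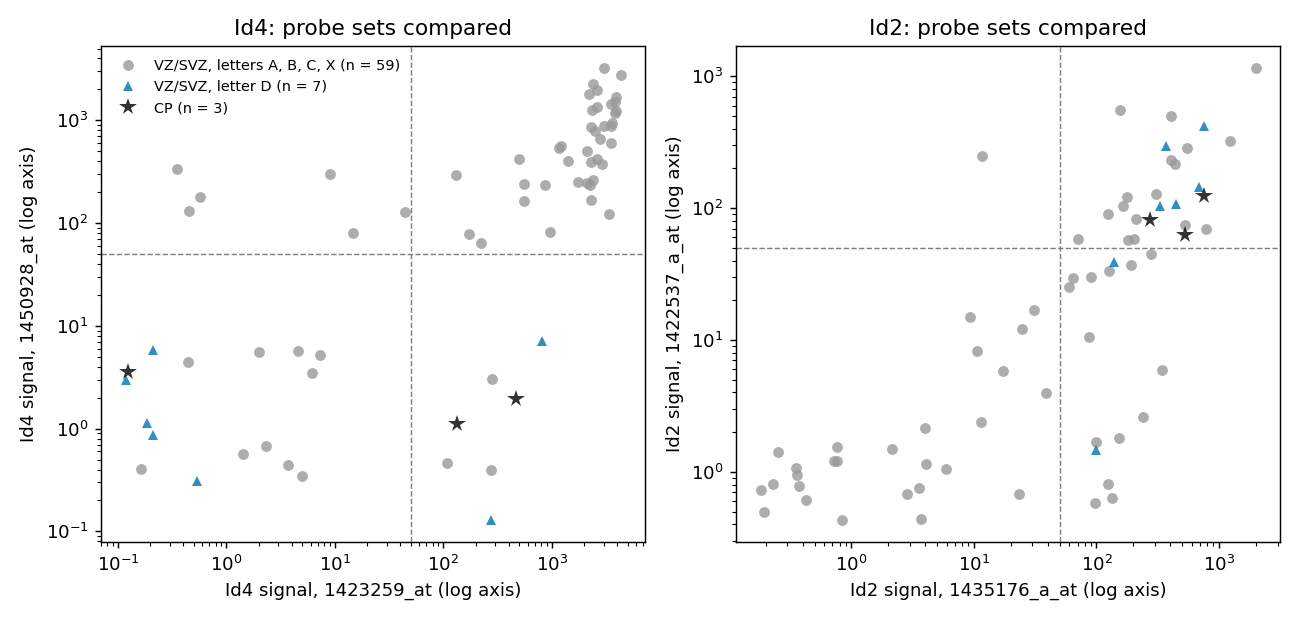
Signal of 2 probe sets of the same gene in each cell (log axes), Id4 at the left and Id2 at the right, with letter D cells as triangles, CP cells as stars and the threshold of 50 as dashed lines. The Id4 sets are on together in 40 VZ/SVZ cells, while all 3 CP cells and all 7 letter D cells are below 50 on 1450928_at; for Id2 the CP cells are above 50 on both.

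In the CP, Id4 depended on the probe set and on the cell. The signals on 1423259_at were 469, 133 and 0.123, so 2 of 3 cells were above 50. On 1450928_at they were 1.94, 1.12 and 3.56, and none was. The log2 difference from the VZ/SVZ on 1423259_at was -1.89, and without the CP cell at 0.123 it was -0.12. Taking 50 as the upper bound for the 3 cells on 1450928_at, the VZ/SVZ mean was at least 2.52-fold higher. In the CP comparison 11% of genes were higher and 20.9% lower by at least 1 log2 unit, so a lower value is common there. The CP cells also had fewer genes above 50, a median of 3982 against 4770.5, and a phe spike mean of 8.26 ± 0.98 log2 units against 9.06 ± 1.07 in the VZ/SVZ; their part in the result was not tested.

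Id2 ran the other way and was high in the cells that looked like neurons. Its brightest probe set, 1435176_a_at, was above 50 in 38 of 66 VZ/SVZ cells (57.6%, 95% interval 44.8 to 69.7), with a lowest signal of 0.182, a median of 94.4 and a highest of 1993. All 3 CP cells were above 50, at 528, 276 and 754. The CP mean was 8.90 ± 0.74 log2 units against 5.84 ± 2.58, which is 3.06 higher or 8.34-fold, and 391 of 18194 genes, Id2 included, were as far up. The VZ/SVZ range enclosed all 3 CP values. Leaving out each CP cell in turn gave 2.73 to 3.46.

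Within the VZ/SVZ, Id2 was above 50 in 16 of 17 cells without Sox2 (median 342) and in 22 of 49 with it (median 24.5), a log2 difference of -2.86. It was above 50 in 10 of 10 cells without Pax6 and 28 of 56 with it. All 11 cells without Mki67, those not marked as dividing, had Id2 (lowest 99.5, median 407, highest 1993), and 27 of 55 with Mki67 did, a difference of -3.33. By combination, all 10 cells with Tubb3 alone were above 50 (lowest 99.5, median 390, highest 1993), as were 5 of 6 with Eomes and Tubb3. By contrast 8 of 20 cells with Sox2 alone and 2 of 8 with Sox2 and Tubb3 were above 50, with medians of 15.2 and 13.4. Cells with Sox2 and Eomes stood between, at 6 of 10, and those with all 3 markers at 6 of 11.

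The Tubb3 split gave a smaller value for Id2 than the Sox2 split. Over all VZ/SVZ cells Id2 was above 50 in 23 of 35 cells with Tubb3 and 15 of 31 without, a difference of 1.27. Among cells with Sox2, 8 of 19 with Tubb3 and 14 of 30 without had Id2, a difference of 0.17 with an SD of 2.30 and 2.44 in the 2 groups. The Tubb3 value also depended on the letter, at 2.61 in letter X, 0.03 over letters A to D, -1.44 in letter B and -1.40 in letter A. The Sox2 difference was -4.24 in letter X and -2.18 over letters A to D. By Eomes, 18 of 28 cells with it and 20 of 38 without had Id2, 0.41 log2 units apart. Among the Sox2 cells alone, 12 of 21 with Eomes and 10 of 28 without had Id2, a difference of 1.11. Between the classes, 15 of 16 cells with Tubb3 and no Sox2 had Id2 against 14 of 30 with Sox2 and no Tubb3, a difference of -2.86, and 238 genes including Id2 were as far down.

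The second Id2 probe set, 1422537_a_at, was above 50 in 23 of 66 VZ/SVZ cells, 22 of them also on by the brightest set, and in all 3 CP cells, at 62.98, 81.1 and 123. Its Sox2 difference was -2.11. On this set 8 of 10 cells with Tubb3 alone were above 50, but only 2 of 6 with Eomes and Tubb3. It was above 50 in 9 of 11 cells without Mki67 and 14 of 55 with it. Without Pax6 the count was 8 of 10, and with Pax6 15 of 56. The set 1453596_at was above 50 in 3 VZ/SVZ cells, at 754, 303 and 522, and all 3 had Tubb3 without Sox2, Eomes, Pax6 or Mki67. The CP cells read 4.11, 4.39 and 5.28 on it, so it did not mark neurons in general.

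Id1 was on in fewer cells and followed the markers loosely. Its probe set, 1425895_a_at, was above 50 in 23 of 66 VZ/SVZ cells (34.8%, 95% interval 23.5 to 47.6), with a lowest signal of 0.772, a median of 11.7 and a highest of 1335, and no cell lay between 25 and 50. The CP cells read 9.28, 58.7 and 10.5. Id1 was above 50 in 21 of 49 cells with Sox2 and in 2 of 17 without, at 5.40 ± 2.75 against 3.75 ± 2.06 log2 units, a difference of 1.65. Most cells of both sets were below 50, and with all signals under 50 set to 50 the difference was 0.77. The Tubb3 split showed little, 12 of 35 against 11 of 31, a difference of -0.18. By Eomes, 6 of 28 cells with it and 17 of 38 without had Id1, a difference of -1.16 that was -0.64 within letter X and -0.10 with Eomes called at the TrpnX level. Between the classes 11 of 30 cells with Sox2 and no Tubb3 had Id1, and 2 of 16 with Tubb3 and no Sox2, 1.33 apart, or 0.57 with the floor at 50.

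By title letter the share of cells with Id1 ran from none to nearly all. It was above 50 in 6 of 7 letter A cells (85.7%, 42.1 to 99.6), 4 of 14 letter B, 0 of 7 letter C (upper bound 40.96%), 1 of 7 letter D and 12 of 31 letter X. The combination with the highest share was Sox2 with Tubb3 and no Eomes, with 6 of 8 cells above 50 and a median of 368, and 3 of those 8 cells were letter A and 5 letter X. Sox2 alone gave 9 of 20 and all 3 markers 4 of 11. Letter D held 1 cell at 543 while its other 6 read 15.1 or less.

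**Figure D3:**
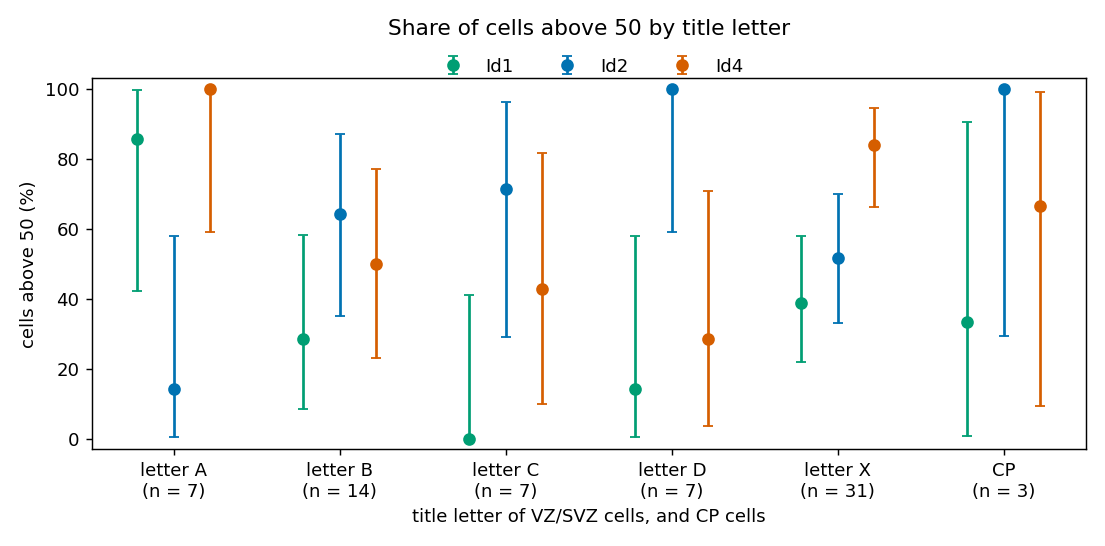
Percent of cells with Id1, Id2 and Id4 above 50 for each title letter of the VZ/SVZ cells and for the CP cells; bars are exact 95% Clopper-Pearson intervals, and n is the number of cells. Letter A has Id4 in 7 of 7 cells and Id2 in 1 of 7, and letter D has Id4 in 2 of 7 and Id2 in 7 of 7.

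Id1 is strongly expressed in blood vessel cells of many tissues, so markers of other cell types were read in the same cells. Of 8 endothelial markers, 7 (Pecam1, Cdh5, Kdr, Tek, Flt1, Cldn5 and Tie1) were below 50 in every cell, and no endothelial marker was above 50 in any of the 23 Id1 cells. The summed endothelial signal was 15.5 to 73.2 in the cells with Id1 and 12.9 to 84.8 in the others. The 7 pericyte and meningeal markers gave 5 readings above 50 in the 23 Id1 cells and 2 in the 43 others, never more than 1 in a cell, and 4 of them (Rgs5, Cspg4, Col1a1 and Col3a1) were below 50 throughout. All 5 microglial, all 4 measured erythroid and all 5 choroid plexus and cortical hem markers were below 50 in every cell. Of the 6 interneuron markers, 4 readings were above 50, none of them in Id1 cells, and up to 3 fell in 1 cell. The 5 Cajal-Retzius markers gave 2 readings above 50 in Id1 cells and 8 in the others, and the 4 oligodendrocyte precursor markers gave 1 and 1.

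Id3 was above threshold in almost no cell. Its probe set, 1416630_at, was above 50 in 1 of 66 VZ/SVZ cells (1.52%, 95% interval 0.0384 to 8.16), and the median was 0.940. That cell read 267, carried letter X, and had Sox2, Eomes, Tubb3 and Mki67 above 50 with Pax6 at 7.03. It also had Id2 at 437 and neither Id1 nor Id4. The next highest cell read 9.32. The CP cells read 0.911, 4.31 and 0.906. Its log2 differences between groups, at most 0.21 in size in the 3 marker splits, rest on this 1 cell.

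Id2 and Id4 tended to be on in different cells. Over the 66 VZ/SVZ cells 21 had both above 50, 17 Id2 only, 24 Id4 only and 4 neither. Id4 was on in 21 of 38 cells with Id2 (55.3%) and in 24 of 28 without (85.7%). The rank correlation was -0.49, at -0.59 in the 31 letter X cells and -0.31 in the 35 others; the points share the arrays, their depth and the marker classes. The 24 cells with Id4 only all had Sox2, Pax6 and Mki67, and 8 had Tubb3. Of the 17 with Id2 only, 5 had Sox2, 9 had Pax6, 9 had Mki67 and 15 had Tubb3. Of the 21 cells with both, 17 had Sox2, 19 Pax6, 18 Mki67 and 8 Tubb3. Among all 66 VZ/SVZ cells the counts were 49, 56, 55 and 35, so most cells carried the progenitor markers in any case. In letter X no cell lacked both genes.

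**Figure D4:**
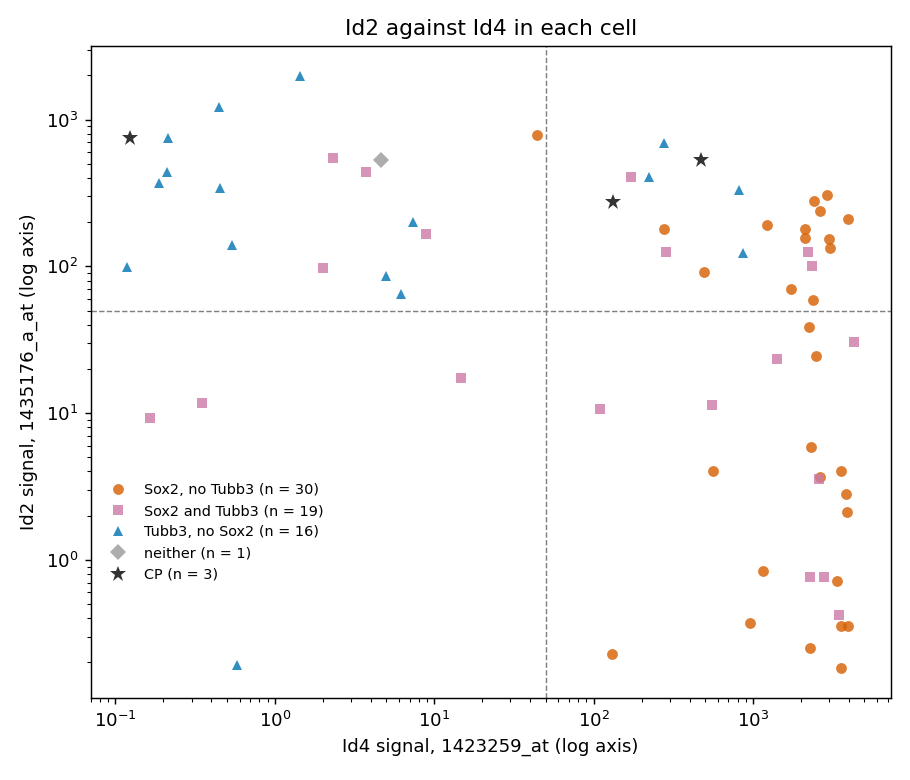
Id2 signal against Id4 signal in each of the 69 cells (log axes), with symbols for the marker classes and dashed lines at 50. Cells with Sox2 and no Tubb3 lie to the right, with Id4 above 50 in 29 of 30, and cells with Tubb3 and no Sox2 lie high, with Id2 above 50 in 15 of 16.

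Id1 showed weaker relations to its paralogues. Of the 23 Id1 cells, 18 also had Id4 and 10 had Id2, and the rank correlations over 66 cells were 0.27 with Id4 and -0.20 with Id2. Counting which of the 4 genes were above 50, the VZ/SVZ cells fell into 15 with Id2 and Id4, 12 with Id4 alone, 12 with Id1 and Id4, 12 with Id2 alone, 6 with Id1, Id2 and Id4, and 4 with Id1 and Id2. 1 cell had Id1 alone, 1 had Id2 and Id3, and 3 had none. All 12 cells with Id1 and Id4, and all 12 with Id4 alone, had Sox2, Pax6 and Mki67. Of the 12 VZ/SVZ cells with Id2 alone, 2 had Sox2 and 10 had Tubb3.

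The genes whose signal ranked most like each Id gene over the 66 VZ/SVZ cells were looked up among 6897 genes above 50 in 10 to 56 of them. For Id4 they were Sox1, a progenitor transcription factor related to Sox2, with a rank correlation of 0.80, then Gas1, a cell-surface protein of Hedgehog signalling, Kcnj10, a potassium channel of glia, and Aif1l at 0.79, and Ednrb, an endothelin receptor of radial glia, at 0.78. Ednrb was above 50 in 33 of 45 cells with Id4 and in none of 21 without, and Kcnj10 in 32 and 1. The lowest were Mgat5b at -0.80 and Carmil3 and Lzts1 at -0.78. For Id2 the highest were Kcnq3, a potassium channel of neurons, at 0.65, Mkrn1 and Ube2ql1 at 0.58, Tbr1, a transcription factor of deep-layer cortical neurons, at 0.55 and Cyria at 0.54. Kcnq3 was above 50 in 20 of 38 cells with Id2 and in 1 of 28 without, and Tbr1 in 20 and 3. The lowest for Id2 were Elavl1 at -0.58 and Aif1l and Bmper, a secreted BMP-binding protein, at -0.57. For Id1 the highest was Fut8 at 0.50, followed by Cxxc4 at 0.49, Scara3 and Mtap at 0.47 and Acss1 at 0.46. The lowest for Id1 were Scg3 at -0.48 and Brsk2 and Pou3f1 at -0.47. These are given as a ranking only. For Id3, with 1 cell above 50, the ranking was not read. None of Id1, Id2 and Id4 was among the 5 genes most like another of them. Id3, with 1 cell above 50, was not among the genes ranked. These are descriptions over cells of the same arrays.

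The partners that Id proteins bind were present almost throughout the VZ/SVZ. The E proteins Tcf4 and Tcf12 were above 50 in all 66 VZ/SVZ cells and Tcf3 in 60. Of these 3, Tcf3 was higher by at least 1 unit in the cells with Sox2 and no Tubb3 than in those with Tubb3 and no Sox2, at 1.22, and the list's median difference was 0.31 against 0.01 over all genes. In this contrast 13.4% of all genes were higher and 8.32% lower by at least 1 unit. Of the 4 Id genes 2 were higher, Id1 at 1.33 and Id4 at 6.50, and 1 was lower, Id2 at -2.86. Id3 was at -0.0004. Their median of 0.67 therefore does not stand for a shift of the whole family. In the CP, Tcf12 was above 50 in 1 of 3 cells, Tcf3 in 2 and Tcf4 in 3. The CP mean differed from the VZ/SVZ mean by -5.76 log2 units for Tcf12, -2.27 for Tcf3 and -1.20 for Tcf4. Of all genes, 20.9% were lower by at least 1 unit in that comparison.

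The bHLH factors that E proteins pair with to drive neuronal genes were lower in the Sox2 class for 4 of 8 measured, against 8.32% of all genes, with a median of -1.12. Neurod6 differed by -6.77, Neurod2 by -6.14, Neurod1 by -2.94 and Nhlh1 by -1.93. The neurogenins were not lower, with Neurog2 at 0.59 and Neurog1 at 0.03, and Neurod4 and Nhlh2 were at -0.31 and -0.24. Neurog2 was above 50 in 25 of 30 cells with Sox2 and no Tubb3 and in 11 of 16 with Tubb3 and no Sox2. Neurod6 and Neurod2, factors of pyramidal neurons, were above 50 in 16 of 16 cells with Tubb3 and no Sox2 and in 9 and 4 of 30 with Sox2 and no Tubb3. Of 6 Hes and Hey factors, 3 were higher in the Sox2 class, against 13.4% of all genes: Hes5 by 2.68, Hes1 by 2.38 and Hey1 by 2.16. These 3 are repressors that act downstream of Notch. Hes6, which counteracts Hes1, was lower, at -1.92, and the list's median was 1.17. Olig1 was below 50 in every cell and Olig2 was above it in 1.

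The BMP pathway was represented by receptors and SMADs and hardly by ligands. Bmp2, Bmp4, Bmp5 and Bmp6 were below 50 in every cell, and Bmp7 was above 50 in 3. The counts of this pathway stand beside 13.4% of all genes higher and 8.32% lower in the same contrast. Among 6 receptors, Bmpr1a and Bmpr1b were higher in the Sox2 class, by 1.82 and 1.96, and Acvr2a and Acvr2b were lower, at -1.17 and -1.45. The other type I receptor listed, Acvr1, was at 0.51 and the other type II receptor, Bmpr2, at -0.22. The list median was 0.14. Bmpr1a was above 50 in 28 of 30 cells of the Sox2 class and 11 of 16 of the Tubb3 class. Of 6 SMADs, Smad5, which carries the BMP signal, was higher by 2.31, and the median was 0.20. Smad1, which also carries it, was at -0.55. It was above 50 in 15 of 30 cells of the Sox2 class and 11 of 16 of the Tubb3 class. Of 6 BMP antagonists 2 were higher, Smurf1, a ubiquitin ligase for SMADs, by 1.61 and the secreted inhibitor Nog by 1.01. Of 4 other genes listed as BMP targets, Msx1, Msx2 and Gata2 were below 50 in all cells. The remaining gene, Tgif1, was higher by 1.12 and above 50 in 16 VZ/SVZ cells, and whether BMP acts on it here was not tested.

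Pocket proteins of the retinoblastoma family, which Id2 can bind, differed in direction. Rbl1 (p107) was 4.74 higher in the Sox2 class and Rbl2 (p130) 1.32, while Rb1 was lower, at -1.13. Of 12 cell cycle genes 9 were higher, with a median of 2.50 against 0.01 over all genes. The largest differences were Top2a at 5.86, Mki67 at 5.61 and Cdk1 at 5.31. The cell cycle inhibitor Cdkn1c was lower, at -3.31. Across all genes 13.4% were higher and 8.32% lower in this contrast, which holds for the pocket proteins too. The 2 classes also differed in depth, with a median of 4971.5 and 4332 genes above 50 per cell and phe spike means of 9.27 ± 0.90 and 8.87 ± 1.22 log2 units. Over the 66 cells the rank correlation with the number of genes above 50 was 0.32 for Id4, -0.12 for Id2 and 0.08 for Id1, and its part in these differences was not tested.

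**Figure D5:**
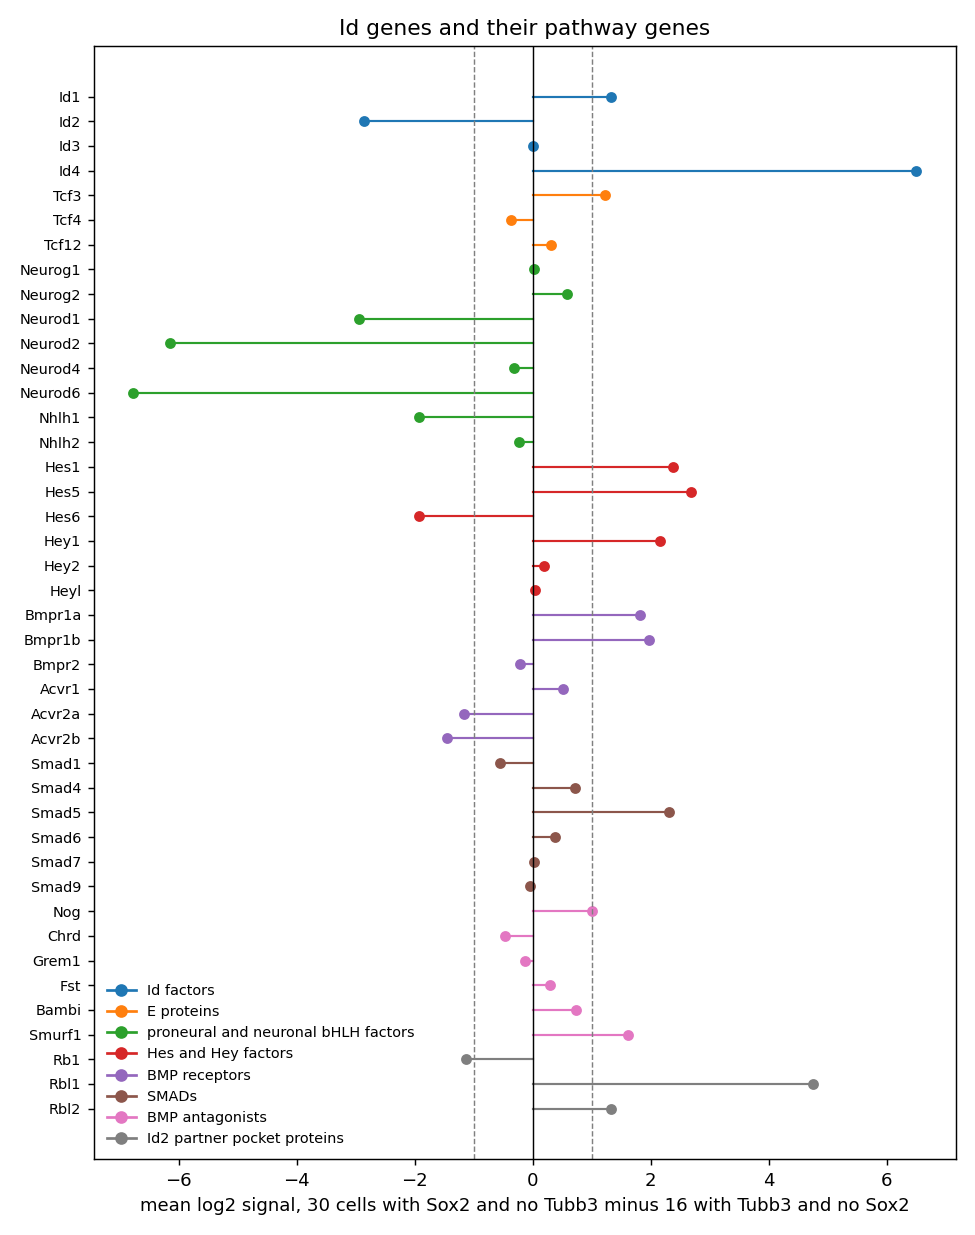
Difference in mean log2 signal between the 30 VZ/SVZ cells with Sox2 and no Tubb3 and the 16 with Tubb3 and no Sox2 for the Id genes and the genes of 7 related lists, each point 1 gene and dashed lines at -1 and 1. Id4 at 6.50 has the highest value drawn, Neurod6 at -6.77 the lowest, and Id2 at -2.86 falls on the side of the neuronal bHLH factors.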

How the data were processed

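The deposited table holds MAS5 signal intensity, 1 column per cell and 45101 probe sets, per the submitters' processing notes; no version or target scale is given in the sources used here. Its 2% trimmed means ran from 50.1 to 142 between arrays, so the arrays were not rescaled to 1 level. 34958 probe sets have 1 gene in GEO's platform annotation. Where a gene has several, the brightest on average (log2, 69 cells) stands for it, and the other Id probe sets are given beside it. Signals under 6.26 were set to that floor before log2, and a difference of at least 1 log2 unit was counted as a size, not a test. Group labels came from the source names. The threshold of 50, the Id genes, the marker and pathway lists and the named genes were chosen with earlier results of these data known. The named genes were all Id probe sets, up to 4 genes per list by size of difference, and the 5 most and 3 least alike genes, not read for Id3. The remaining measured neuronal bHLH factors and BMP receptors were named as well. Id1 upstream and protein sequences were not used here. Scripts, tested on simulated data, ran in Python 3.11.15 with numpy 2.4.6, pandas 2.3.3 and scipy 1.17.1. Doublets could not be assessed beyond the hand-picking of cells.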

Additional observations from a re-analysis of the deposited data

Results flagged for a closer look

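In 2 of the 8 sets of 7 cells that were examined (Id1, Id2 and Id4 by title letter, where a cell was above 50), 1 cell stood apart by Dixon's criterion. In letter D, Id1 was at 9.086 log2 units (signal 543) in 1 cell, and the next cell was at 3.92. In letter A, Id2 was at 8.263 log2 units (signal 307) in 1 cell, and the other 6 were at the floor of 2.65, so any single cell above the floor would meet the criterion there. Chance meets it in about 1 of 20 sets of normally distributed values, which these on-and-off values are not, so these are descriptions of single cells.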

How the results depend on the processing

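In all, 308 values were recomputed with other floors, scalings, probe sets and marker thresholds, or with CP cells left out. Some used letters A to D together, letter X alone or all letters but D. Of the 308, 295 stayed within 1 SD over cells or, for shares, within the interval of the reported value. Another 12 moved further, and 1 difference of at least 1 log2 unit changed sign. The SD was 2.68 for Id1, 2.58 for Id2, 0.67 for Id3 and 3.81 for Id4, wider than many reported differences. Staying within it therefore does not show that a value held. For Id4, CP minus VZ/SVZ ran from -4.33 to -0.12 and the Eomes difference from -3.02 to -0.37, all within 1 SD. Of the 274 recomputed differences 21 changed sign. Apart from Id2 between CP and VZ/SVZ on 1453596_at, the reported differences of those that did were 0.41 or less in size. Splits within letters A, B and C singly were not among the recomputed values, and larger differences changed sign there. Id4 by Tubb3 was 1.75 in letter A, Id2 by Tubb3 -1.40 in letter A and -1.44 in letter B, and Id1 by Sox2 -0.39 in letter C. The Id2 difference of CP from VZ/SVZ was -0.40 on 1453596_at. On the dim Id4 set 1423260_at the Sox2 difference was 0.74, the Tubb3 difference -0.47, that between the classes 0.82, and the share above 50 3.03%. Id3 between the classes was -0.84 with no floor. Above the TrpnX level were 78.8% of VZ/SVZ cells for Id1 and 71.2% for Id2. Id2 was above 50 in 34.8% on 1422537_a_at and 4.54% on 1453596_at. By letter, Id4 was above 50 in 54.3% over A to D and 83.9% in X, and Id3 in 0% over A to D. Leaving out each CP cell gave -1.68 to -0.35 for Id1, 2.73 to 3.46 for Id2, -0.10 for Id3 each time and -3.23 to -0.12 for Id4. The contrast of the classes and its alternatives, including leaving out letter D (6.67 for Id4, -2.52 for Id2), were added after the data were seen. No paired analysis was possible because the cells carry no shared animal or pairing label. The cause of each change was not tested.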
